A study of Mus musculus with 20 samples.

Results

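The subject is a set of 37 genes of glycolysis, gluconeogenesis and glycogen metabolism, followed in mouse liver across LXR genotype and diet. They were chosen by gene symbol, as the array's own annotation or an older symbol gives it. Of the 37 genes, 36 had a probe, 55 probes in all, among 27573 genes on the array, and 34 of the 36 passed the filter on dim signals, against 17526 of the 27573. Pck1 is not analysed here. Fbp2 and Aldoa did not pass and are described apart.

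Livers came from 28-week-old male mice on a mixed Sv129/C57Bl6J background that either lacked both liver X receptors, LXR alpha and LXR beta (KO), or were wild-type (WT). The receptors are nuclear receptors that respond to oxidised cholesterol. For 7 weeks the animals ate freely either a Western diet (WD), named as a cocoa butter diet, or a normal chow diet (ND). The 4 groups were therefore KO on Western diet, KO on normal diet, WT on Western diet and WT on normal diet, with 5 mice each and 1 one-colour array per mouse. The deletion is carried by the whole animal, so cells other than hepatocytes lacked the receptors too. The labels do not say which animals were littermates, or whether food was withheld before the livers were taken.

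The liver takes up glucose, breaks it down through glycolysis, stores it as glycogen, and makes and releases it between meals through gluconeogenesis. Several steps have a form found mainly in hepatocytes and another form used by most other cells. In hepatocytes, the carbohydrate response factor ChREBP, encoded by Mlxipl, raises glycolytic genes when sugar is plentiful, and FOXO factors raise gluconeogenic genes when insulin is low.

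Promoter windows were found for 35 of the 37 genes, 54 windows in all, each from 250 bases before to 50 bases after a RefSeq transcription start on GRCm38.p6. The 4 printed here belong to genes with large differences between the groups and hold, on either strand, a motif that was searched for, in capitals. In the window of Pklr, at the downstream of its starts (chr3:89136373-89136672, plus strand), the capitals mark CACGNGNNNNNCNCGNG, a pair of E-box-like parts with the spacing of a carbohydrate response element. In those of Khk (chr5:30921309-30921608, plus strand) and Ppp1r3c (chr19:36736555-36736854, minus strand) they mark CACGTG, the E-box. In that of G6pc (chr11:101367466-101367765, plus strand) they mark CAAAACA, read here on the other strand, the core of the insulin response sequence that FOXO factors bind.
Pklr: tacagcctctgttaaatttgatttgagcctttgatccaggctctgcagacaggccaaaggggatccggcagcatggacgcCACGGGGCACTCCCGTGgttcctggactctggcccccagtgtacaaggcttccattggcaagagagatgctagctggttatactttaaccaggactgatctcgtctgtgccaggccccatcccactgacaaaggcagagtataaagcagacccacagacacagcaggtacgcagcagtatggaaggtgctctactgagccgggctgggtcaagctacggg
Khk: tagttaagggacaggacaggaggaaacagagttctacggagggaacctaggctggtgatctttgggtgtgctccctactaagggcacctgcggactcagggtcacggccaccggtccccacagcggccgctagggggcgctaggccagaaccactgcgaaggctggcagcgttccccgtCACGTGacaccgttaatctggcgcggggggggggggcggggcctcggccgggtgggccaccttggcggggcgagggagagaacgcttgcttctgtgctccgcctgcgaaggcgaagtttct
Ppp1r3c: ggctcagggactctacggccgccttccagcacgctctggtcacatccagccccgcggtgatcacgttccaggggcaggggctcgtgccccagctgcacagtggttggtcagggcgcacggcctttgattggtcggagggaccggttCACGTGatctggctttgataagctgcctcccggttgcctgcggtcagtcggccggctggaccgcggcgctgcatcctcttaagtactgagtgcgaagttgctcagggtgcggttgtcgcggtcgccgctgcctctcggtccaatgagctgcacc
G6pc: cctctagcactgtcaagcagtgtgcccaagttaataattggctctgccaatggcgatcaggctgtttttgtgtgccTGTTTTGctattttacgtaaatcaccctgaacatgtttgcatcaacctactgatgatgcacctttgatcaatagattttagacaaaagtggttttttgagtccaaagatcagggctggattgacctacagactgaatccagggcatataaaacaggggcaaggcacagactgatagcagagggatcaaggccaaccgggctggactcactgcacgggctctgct
The spaced pair stood in 1 member window, that of Pklr, and in 0.365% of all 32851 RefSeq promoter windows of the same length. A CACGTG can also fill the first part of the pair, so the searches may overlap, but the window of Pklr held none. The E-box itself stood in 7 of the 54 member windows, of 7 members (Fbp2, Khk, Ldha, Pcx, Pfkfb3, Pfkm and Ppp1r3c), and in 7.15% of all windows. CAAAACA stood in 4 of the 54 member windows, of 4 members (Fbp2, G6pc, Gckr and Pck2), and in 6.28% of all windows. A match is a string of letters and was not tested as a binding site.

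Levels are log2 signals set against the 75th percentile of the array they came from, so a level of 0 is that percentile and 1 unit is a doubling. Differences are log2 differences of group means ± SE from 1 limma fit over all 17526 genes, and a gene was called at a Benjamini-Hochberg adjusted p under 0.05. The 75th percentile of the raw signal lay between 161 and 407 across the 20 arrays, and 53.6% to 67.1% of spots were well above background. That percentile was not alike in the groups. It was 310 to 407 in KO livers on Western diet and 212 to 308 in KO livers on normal diet. In WT livers it was 250 to 318 on Western diet and 161 to 266 on normal diet. The scaling thus lowered KO livers on Western diet the most, and small differences that involve them depend on it. The probe of Nr1h3, which encodes LXR alpha, averaged -4.60 ± 0.72 in KO and 4.36 ± 0.31 in WT livers on Western diet (SD, n = 5 each). Nr1h2, which encodes LXR beta, averaged -4.62 ± 0.69 in KO and 0.76 ± 0.10 in WT livers. Whether these probes lie in the deleted exons is not given in the sources used here. Hepatocyte markers were on the array for 14 of 15 genes, and at least 13 of them were above background on every array of each group.

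In the first comparison, KO against WT on Western diet, 8 of the 34 genes were higher and 14 lower in KO livers. Of all genes tested, 26.1% were higher and 30.6% were lower, so the upward share among the 34 was near that of the array as a whole and the downward share was above it. For 7 genes every KO array lay above every WT array, and for 11 every KO array lay below, against 20% and 21.4% of all genes. The median difference was -0.15 for the 34 and -0.12 for all genes. All 22 calls held when any single array was left out, and 20 of the 22 had the same sign on each of the 4 slides, told apart by scan time, that carried both groups (the exceptions were Gapdh and Gbe1). With quantile normalization in place of the 75th percentile the counts became 11 higher and 11 lower.

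On normal diet, 8 of the 34 were higher and 5 lower in KO than in WT livers, against 11.4% and 7.92% of all genes tested. Groups did not overlap for 4 genes upward and 3 downward, against 8.29% and 6.5% of all genes. The downward count was not steady. It was 3 without KO normal diet replicate 1 or WT normal diet replicate 3, 2 without WT normal diet replicate 4 or 5, and 8 without KO normal diet replicate 4 or WT Western diet replicate 4. It was also 3 with slide as a block, where G6pc and Gpi1 lost their calls. Of the 13 calls, 8 held when any single array was left out.

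Between the diets, 1 gene was higher and 2 were lower in WT livers on Western than on normal diet, against 3.16% and 2.76% of all genes. Groups did not overlap for 0 genes upward and 2 downward, against 4.02% and 4.07%. In KO livers 9 genes were higher and 17 lower on Western diet, against 23.7% and 26.4% of all genes. There the groups did not overlap for 9 genes upward and 10 downward, against 16.8% and 17.1%, and 24 of the 26 calls had the same sign on each of 5 slides (the exceptions were Gys2 and Ppp1r3b). The median diet difference was -0.45 for the 34 genes and -0.09 for all genes in KO livers, and -0.12 and -0.03 in WT livers. In KO livers quantile normalization gave 12 higher and 14 lower, and the authors' deposited values gave 13 and 13. The difference between the diet effects, KO minus WT, was called upward for 5 genes and downward for 7, against 13.3% and 13.7% of all genes, with a median of -0.20 for the 34 and -0.05 for all genes.

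**Figure D1:**
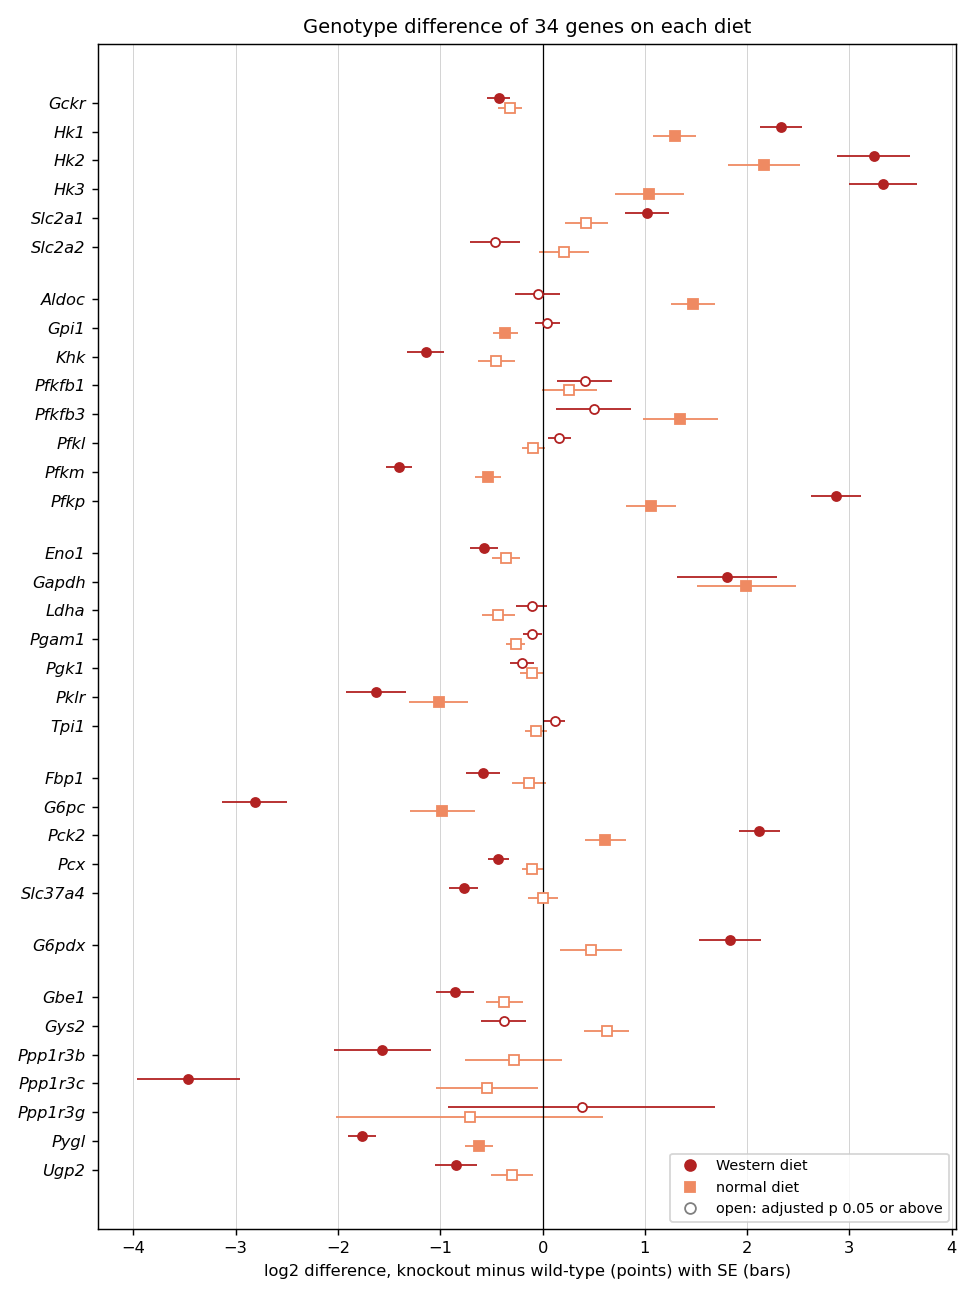
Log2 difference of KO minus WT livers for each of the 34 genes, with SE, on Western diet (circles) and on normal diet (squares). Genes are grouped from top to bottom as glucose transport and phosphorylation, upper glycolysis, lower glycolysis, gluconeogenesis, G6pdx and glycogen. Filled points have an adjusted p under 0.05, and the Western diet values run from Ppp1r3c at -3.46 to Hk3 at 3.33.

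Of 6 genes for glucose transport and phosphorylation, 4 were higher and 1 was lower in KO than in WT livers on Western diet. Of all genes, 26.1% were higher and 30.6% lower there. Hk1, Hk2 and Hk3 encode hexokinases with a high affinity for glucose, which adult hepatocytes hold at low levels. Hk2 measured 1.14, 1.52, 1.77, 1.10 and 1.50 in KO livers on Western diet and 0.09, -0.84, -0.91, -1.95 and -0.88 on normal diet. In WT livers it measured -0.89, -1.39, -2.74, -1.58 and -2.54 on Western diet and -2.81, -2.63, -3.25, -3.71 and -2.91 on normal diet. The KO groups lay above the WT group of the same diet without overlap. The KO minus WT difference was 3.24 ± 0.36 on Western diet (9.43-fold, adjusted p = 4.33e-07) and 2.16 ± 0.36 on normal diet (4.48-fold, adjusted p = 0.000286). Hk2 was also the 1 gene that Western diet raised in WT livers, by 1.23 ± 0.36 (adjusted p = 0.0474). That call was lost when any 1 of 16 of the 20 arrays was left out, with differences of 1.00 to 1.34 and adjusted p of 0.0513 to 0.139, and it held without KO normal diet replicate 1 or 4 and without WT Western diet replicate 3 or 5. The count of higher genes was 2 without KO normal diet replicate 4 or WT Western diet replicate 3.

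Hk3, the form most used by blood and immune cells, measured 1.77, 1.14, 1.73, 1.12 and 1.83 in KO livers on Western diet. It measured -0.64, -2.50, -1.72, -1.92 and -1.07 in KO livers on normal diet. In WT livers the values were -1.13, -1.71, -2.32, -1.37 and -2.49 on Western diet and -2.87, -2.14, -2.34, -3.34 and -2.38 on normal diet. KO livers on Western diet stood apart from the other 3 groups. The KO minus WT difference was 3.33 ± 0.34 on Western diet (adjusted p = 1.55e-07), and the diet effect was larger in KO than in WT livers by 2.28 ± 0.47 (adjusted p = 0.00156). Its normal diet call, 1.04 ± 0.34, was lost without KO normal diet replicate 1, 3 or 5 or WT normal diet replicate 1 or 4, at adjusted p of 0.0531 to 0.112.

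Hk1, the form most cells use, rose by 2.33 ± 0.21 on Western diet (adjusted p = 3.45e-08) and by 1.29 ± 0.21 on normal diet (adjusted p = 0.000236). Its values were 1.41, 2.02, 1.87, 0.94 and 1.58 in KO and -0.46, -0.61, -1.16, -0.57 and -1.05 in WT livers on Western diet, with no overlap. The other 2 probes of Hk1 that passed the filter gave less: 0.94 ± 0.26 (called) and 0.59 ± 0.28 (not called) on Western diet, and 0.61 ± 0.26 (adjusted p = 0.108) and -0.13 ± 0.28 (adjusted p = 0.786) on normal diet. Its remaining probes did not pass. The diet effect of the first probe was larger in KO livers by 1.04 ± 0.29 (adjusted p = 0.0131), while the others gave 0.33 ± 0.36 (adjusted p = 0.558) and 0.72 ± 0.39 (adjusted p = 0.19). The mean of all probes, including those that did not pass, ended the call of the first probe for the difference of diet effects and the one between the diets in KO livers. Slc2a1, the glucose carrier of most tissues, measured 2.52, 2.86, 2.86, 2.14 and 2.63 in KO and 1.28, 1.82, 1.59, 1.94 and 1.26 in WT livers on Western diet. It rose there by 1.02 ± 0.21 (adjusted p = 0.000481), and on normal diet the difference was 0.43 ± 0.21 (adjusted p = 0.175).

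Slc2a2, the main glucose carrier of hepatocytes, differed by -0.47 ± 0.24 on Western diet (adjusted p = 0.11), where its second probe, well above background on all 20 arrays, was called at -0.90 ± 0.30 (adjusted p = 0.0157). Western minus normal diet in KO livers was -1.17 ± 0.24 (adjusted p = 0.000561). Its KO values were 3.40, 3.33, 2.67, 4.02 and 3.32 on Western diet and 4.63, 5.05, 4.51, 4.34 and 4.10 on normal diet. Gckr encodes the regulatory protein that holds the liver's own glucose-phosphorylating enzyme in the nucleus. It was lower in KO than in WT livers on Western diet, -0.43 ± 0.11 (adjusted p = 0.00358), a call that quantile normalization and the authors' deposited values did not keep. Between the diets in KO livers it differed by -0.24, and with quantile normalization that difference turned to 0.27.

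**Figure D2:**
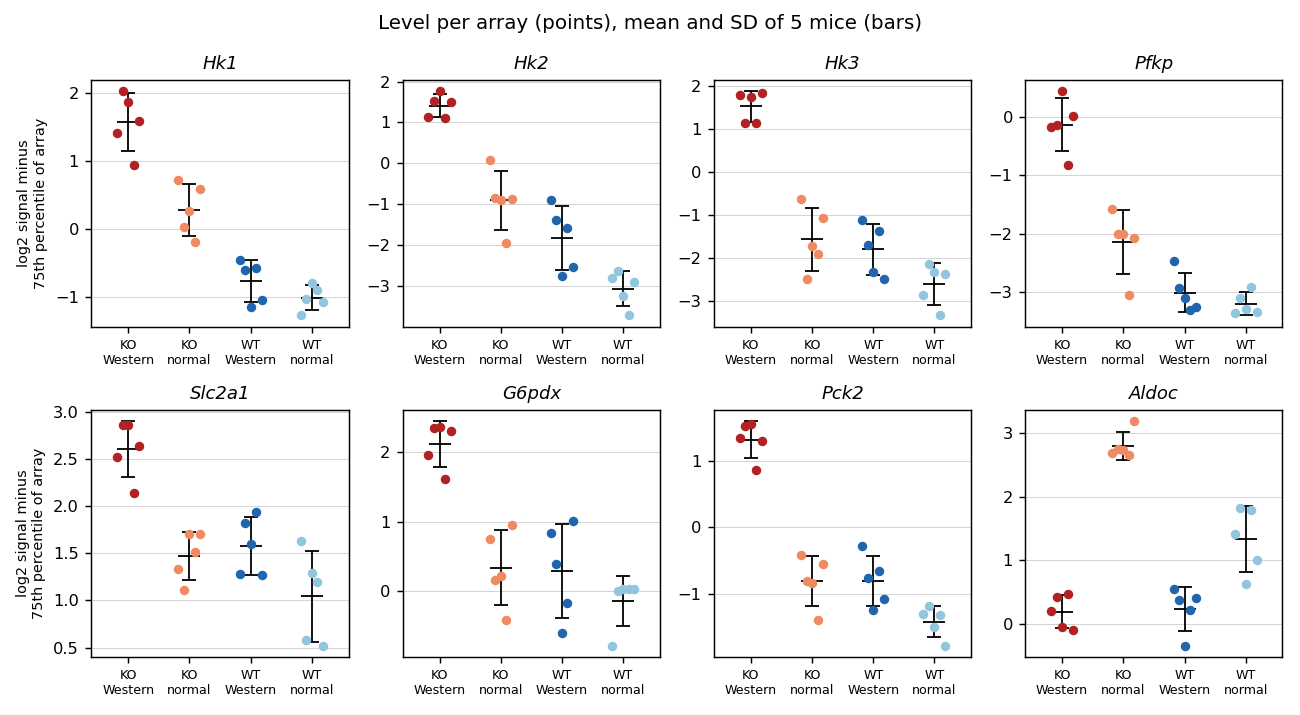
Level per array, in log2 units relative to the 75th percentile of that array, in the 4 groups from KO on Western diet at the left to WT on normal diet at the right; points are mice, bars are mean and SD of 5 mice. Hk1, Hk2, Hk3, Pfkp, Slc2a1, G6pdx and Pck2 are highest in KO livers on Western diet, and Aldoc is highest in KO livers on normal diet.

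In upper glycolysis the 3 genes of phosphofructokinase, the main control point of the pathway, parted. Pfkp, the platelet form, measured -0.18, -0.14, 0.44, -0.82 and 0.01 in KO livers on Western diet and -1.57, -2.00, -2.00, -3.04 and -2.08 on normal diet. In WT livers it measured -2.47, -2.92, -3.10, -3.30 and -3.25 on Western diet and -3.36, -3.10, -3.29, -2.90 and -3.34 on normal diet. KO livers on Western diet lay above all others. It rose by 2.87 ± 0.25 on Western diet (7.3-fold, adjusted p = 2.23e-08) and by 1.06 ± 0.25 on normal diet (adjusted p = 0.00511), and the diet effect was larger in KO livers by 1.81 ± 0.35 (adjusted p = 0.000853). A second probe gave 2.70 ± 0.27 on Western diet and 1.02 ± 0.27 on normal diet, both called, and the remaining probe was well above background on 0 WT arrays.

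Pfkm, the muscle form, moved the other way. It measured 1.02, 0.36, 0.57, 0.74 and 0.62 in KO and 1.83, 1.90, 2.08, 2.38 and 2.12 in WT livers on Western diet. On normal diet it measured 1.26, 1.28, 1.21, 1.22 and 1.27 in KO and 1.64, 1.51, 1.79, 2.04 and 1.92 in WT livers. Neither diet showed overlap between the genotypes. It fell by 1.40 (SE 0.13, adjusted p = 4.84e-08) on Western diet and by 0.53 (SE 0.13, adjusted p = 0.0068) on normal diet. Pfkl, the liver form, gave 0.16 ± 0.11 on Western diet (adjusted p = 0.235) and -0.09 ± 0.11 on normal diet (adjusted p = 0.62), and its 20 values spanned 0.78 to 1.35.

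Aldoc, an aldolase known mostly from brain, was high in KO livers on normal diet and low in both groups on Western diet. It measured 0.20, 0.41, -0.05, 0.47 and -0.10 in KO livers on Western diet and 2.68, 2.75, 2.74, 2.66 and 3.19 on normal diet. WT livers measured 0.54, 0.38, -0.34, 0.21 and 0.41 on Western diet and 1.42, 1.83, 0.63, 1.79 and 1.01 on normal diet. Western minus normal diet was -2.62 ± 0.22 in KO (adjusted p = 2.8e-08) and -1.10 ± 0.22 in WT livers (adjusted p = 0.00461), and the diet effects differed by -1.52 ± 0.31 (adjusted p = 0.00129). On normal diet KO exceeded WT livers by 1.47 ± 0.22 (adjusted p = 0.000107). The second probe of Aldoc fell with diet in both genotypes too, -1.52 ± 0.33 in KO and -1.61 ± 0.33 in WT livers, but on Western diet, where it was well above background on 5 KO and 2 WT arrays, it was higher in KO than in WT livers by 2.10 ± 0.33 (adjusted p = 2.86e-05) where the first gave -0.05 ± 0.22. Its diet effects differed by 0.09 ± 0.47 (adjusted p = 0.921), so the difference between genotypes in the diet effect rested on 1 of 2 probes.

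Pfkfb1 and Pfkfb3 encode the liver form and a widely used form of the enzyme that makes and breaks the activator of phosphofructokinase. Pfkfb1 was lower on Western than on normal diet in both genotypes, with differences of -1.26 ± 0.27 in KO (adjusted p = 0.000738) and -1.41 ± 0.27 in WT livers (adjusted p = 0.00336). Its diet effects differed by 0.15 ± 0.38 (adjusted p = 0.826). Pfkfb3 was higher in KO than in WT livers on normal diet, 1.35 ± 0.37 (adjusted p = 0.0141), with WT values as far apart as -0.21 to 2.08, and its second probe gave 0.72 ± 0.44 there without passing. Between the diets in KO livers the first probe gave -0.22 ± 0.37 (adjusted p = 0.644) and the second -1.40 ± 0.44 (adjusted p = 0.0123). Gpi1, which turns the first phosphorylated sugar of glycolysis into fructose phosphate, was higher on Western than on normal diet in KO livers, 0.52 ± 0.12 (adjusted p = 0.00154), but its second probe gave -0.44 ± 0.59 there and the mean of both, 0.04, did not pass. Its call on normal diet, -0.36 ± 0.12, was lost without any 1 of 7 arrays (KO normal diet replicates 1, 2 and 3, KO Western diet replicate 5, WT normal diet replicates 3, 4 and 5), at adjusted p of 0.0515 to 0.106.

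Khk, the fructokinase through which dietary fructose enters hepatocytes, and whose window holds an E-box, measured 6.18, 6.14, 5.71, 6.45 and 6.11 in KO and 7.33, 7.24, 6.86, 7.67 and 7.22 in WT livers on Western diet. Khk measured 6.97, 7.27, 7.30, 7.35 and 7.39 in KO and 7.18, 7.46, 7.88, 8.13 and 7.90 in WT livers on normal diet. It fell by 1.14 on Western diet (SE 0.18, adjusted p = 2.71e-05), where the groups did not overlap. Its second probe, left with 4 KO and 3 WT arrays there after outlier spots were dropped, fell by 1.33. Between the diets in KO livers Khk fell by 1.14 (SE 0.18, adjusted p = 3.82e-05). On normal diet the first probe gave -0.45 ± 0.18 (adjusted p = 0.0867). The second, left with only 3 KO and 2 WT arrays there, gave -0.80 ± 0.21 (adjusted p = 0.0228).

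Aldoa, the aldolase of muscle and most other cells, has 2 probes. The brighter was marked as an outlier spot on 14 of 20 arrays and left out there. The other was well above background on all 20 arrays and was higher in KO than in WT livers on Western diet by 1.05 ± 0.14 (adjusted p = 3.12e-06), and on normal diet it differed by 0.01 ± 0.14 (adjusted p = 0.974). With the outlier spots kept, the brighter probe gave 1.02 ± 0.10 and -0.04 ± 0.10.

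Lower glycolysis, whose enzymes are shared by nearly all cells apart from the liver and red cell form encoded by Pklr, had few calls. Of its 7 genes, 1, the dim probe annotated as Gapdh, was higher and 2, Eno1 and Pklr, were lower in KO than in WT livers on Western diet. Of all genes, 26.1% were higher and 30.6% lower. The median difference of the 7 genes was -0.11. Tpi1, Pgk1, Pgam1 and Ldha, for triose isomerase, phosphoglycerate kinase, phosphoglycerate mutase and the muscle type of lactate dehydrogenase, gave between -0.20 and 0.12 on Western diet by their brightest probes and none was called. The second probe of Ldha, well above background on all 20 arrays, was lower in KO than in WT livers on Western diet, -0.34 ± 0.13 (adjusted p = 0.0327), and on normal diet, -0.58 ± 0.13 (adjusted p = 0.00437). With quantile normalization Pgam1 turned to 0.22, past the threshold. Between the diets in KO livers, Pgk1 fell by 0.32 (adjusted p = 0.0321). Its second probe, left with 4 Western and 3 normal diet arrays after outlier spots were dropped, gave -0.47 ± 0.14 (adjusted p = 0.0105). The first turned to 0.14, without passing, with quantile normalization or the authors' deposited values, and lost its call without KO Western diet replicate 1 or 5 or KO normal diet replicate 4 or 5 (adjusted p of 0.0643 to 0.0914). Ldha gave -0.02 there, which turned to 0.51 with quantile normalization and 0.48 in the deposited values. The fit dropped KO normal diet replicate 2 for Ldha, an outlier spot.

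Eno1, an enolase found in most cells, fell by 0.58 on Western diet (SE 0.14, adjusted p = 0.00145). The probe annotated as Gapdh was dim, and was well above background on all 10 KO arrays but on 3 of 5 WT arrays per diet. It passed the filter on dim signals only through the KO groups, where it is high. Its calls, counted among the 8 higher genes on each diet, are therefore no support for a difference. It may also not measure the main Gapdh transcript, which is abundant in most cells. It averaged -2.40 ± 0.68 in KO and -4.20 ± 1.16 in WT livers on Western diet (SD, n = 5 each), and the KO minus WT difference was 1.80 ± 0.49 there (adjusted p = 0.00399) and 1.99 ± 0.49 on normal diet (adjusted p = 0.0072). The normexp background correction gave 0.11 and 0.52 without passing.

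Pklr encodes the liver and red cell pyruvate kinase, a textbook target of ChREBP, and its window holds the spaced pair shown above. It measured -0.78, -1.64, -1.53, -0.50 and -1.30 in KO and 0.69, 0.75, -0.03, 0.45 and 0.53 in WT livers on Western diet. Chow-fed livers measured 0.32, 0.27, 0.32, 0.20 and 0.17 in KO and 0.24, 0.69, 1.75, 1.86 and 1.82 in WT mice. On Western diet every KO value lay below every WT value, while on normal diet the KO values lay close together, the WT values spread widely, and the groups overlapped. The difference was -1.63 ± 0.29 on Western diet (3.09-fold lower, adjusted p = 0.000102) and -1.02 ± 0.29 on normal diet (adjusted p = 0.0186). The normal diet call was lost without WT normal diet replicate 3, 4 or 5, at adjusted p of 0.0526 to 0.0548. Western minus normal diet was -1.41 ± 0.29 in KO livers (adjusted p = 0.000522), and in WT livers it gave -0.80 ± 0.29 (adjusted p = 0.121). The diet effects differed by -0.61 ± 0.41, short of the threshold (adjusted p = 0.302).

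Gluconeogenesis and glucose release had 5 genes tested. Of these, 4, the saturated Fbp1 among them, were lower and 1 was higher in KO than in WT livers on Western diet. The shares of all genes were 30.6% lower and 26.1% higher. G6pc encodes the enzyme that frees glucose in the last step of gluconeogenesis and of glycogen breakdown. It measured 3.24, 4.51, 3.06, 3.99 and 3.95 in KO and 6.68, 6.79, 6.18, 7.21 and 5.96 in WT livers on Western diet. Under the normal diet, G6pc was 5.61, 6.83, 5.93, 6.96 and 5.52 in KO and 7.03, 7.37, 6.84, 7.09 and 7.42 in WT livers. Every KO liver on Western diet lay below every other liver. The difference was -2.81 ± 0.32 on Western diet (7.03-fold lower, adjusted p = 6.27e-07). On normal diet it was -0.98 ± 0.32 (adjusted p = 0.0372), a call lost without any 1 of 7 arrays (KO normal diet replicates 1, 3 and 5, WT normal diet replicates 1, 2, 4 and 5) at adjusted p of 0.0559 to 0.107, and of opposite sign on 1 of 4 slides. Western minus normal diet was -2.42 ± 0.32 in KO livers (adjusted p = 5.5e-06) and -0.59 ± 0.32 in WT livers (adjusted p = 0.322), and these differed by -1.83 ± 0.45 (adjusted p = 0.00546).

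Slc37a4, the transporter that brings the phosphorylated sugar to the G6pc enzyme inside the endoplasmic reticulum, had smaller differences. It measured 4.98, 4.77, 4.89, 5.45 and 4.72 in KO and 5.64, 5.82, 5.65, 5.95 and 5.61 in WT livers on Western diet, and the difference was -0.77 ± 0.15 (adjusted p = 0.000191). On normal diet the difference was 0.00 ± 0.15 (adjusted p = 0.988), and the diet effects differed by -0.78 ± 0.21 (adjusted p = 0.00902). Pcx, pyruvate carboxylase, which feeds pyruvate into gluconeogenesis, fell by 0.43 (SE 0.10, adjusted p = 0.00162) on Western diet, and quantile normalization ended the call. Fbp1, the bisphosphatase that runs opposite to phosphofructokinase, was saturated on all 10 arrays on normal diet, on 2 of 5 KO and on 4 of 5 WT arrays on Western diet. With saturated spots taken at their value it passed the test as lower in KO than in WT livers on Western diet, and as lower on Western than on normal diet in KO livers, so it is in the counts, but saturation on both sides leaves the size of these differences unmeasured. Both calls ended with quantile normalization.

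Pck2, the mitochondrial form of the carboxykinase that commits carbon to gluconeogenesis, was the exception. It measured 1.34, 1.52, 1.55, 0.85 and 1.30 in KO and -0.28, -0.76, -1.24, -0.65 and -1.08 in WT livers on Western diet. Pck2 was -0.41, -0.81, -0.83, -1.39 and -0.55 in KO and -1.30, -1.19, -1.50, -1.31 and -1.78 in WT livers on normal diet. Every KO liver on Western diet lay above every other liver. The difference was 2.12 ± 0.20 on Western diet (4.34-fold, adjusted p = 6.99e-08), and the diet effect was larger in KO livers by 1.50 ± 0.28 (adjusted p = 0.000699). The smaller normal diet difference, 0.61 ± 0.20, lost its call without KO normal diet replicate 1, 2, 3 or 5 or WT normal diet replicate 1, 3, 4 or 5, at adjusted p of 0.0519 to 0.110. Fbp2, the muscle form of the bisphosphatase, was well above background on 3 of 5 arrays of WT livers on Western diet and on 0 of the other 15, and was not tested. With KO signals raised to the lowest signal measured above background on their array, the mean of the 5 WT arrays on Western diet was 1.71-fold higher. That mean takes in WT arrays where Fbp2 was not well above background, so the size of the difference is not settled.

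G6pdx, the first enzyme of the pentose phosphate pathway and a source of NADPH, measured 1.97, 2.36, 2.37, 1.62 and 2.31 in KO and 0.84, 0.38, -0.61, -0.18 and 1.01 in WT livers on Western diet. On normal diet it measured 0.75, 0.16, 0.21, -0.42 and 0.96 in KO and -0.80, -0.01, 0.02, 0.03 and 0.02 in WT livers. KO livers on Western diet lay above all others. The difference was 1.84 ± 0.30 on Western diet (adjusted p = 4.56e-05) and 0.48 ± 0.30 on normal diet (adjusted p = 0.297), and the diet effects differed by 1.36 ± 0.43 (adjusted p = 0.0239).

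**Figure D3:**
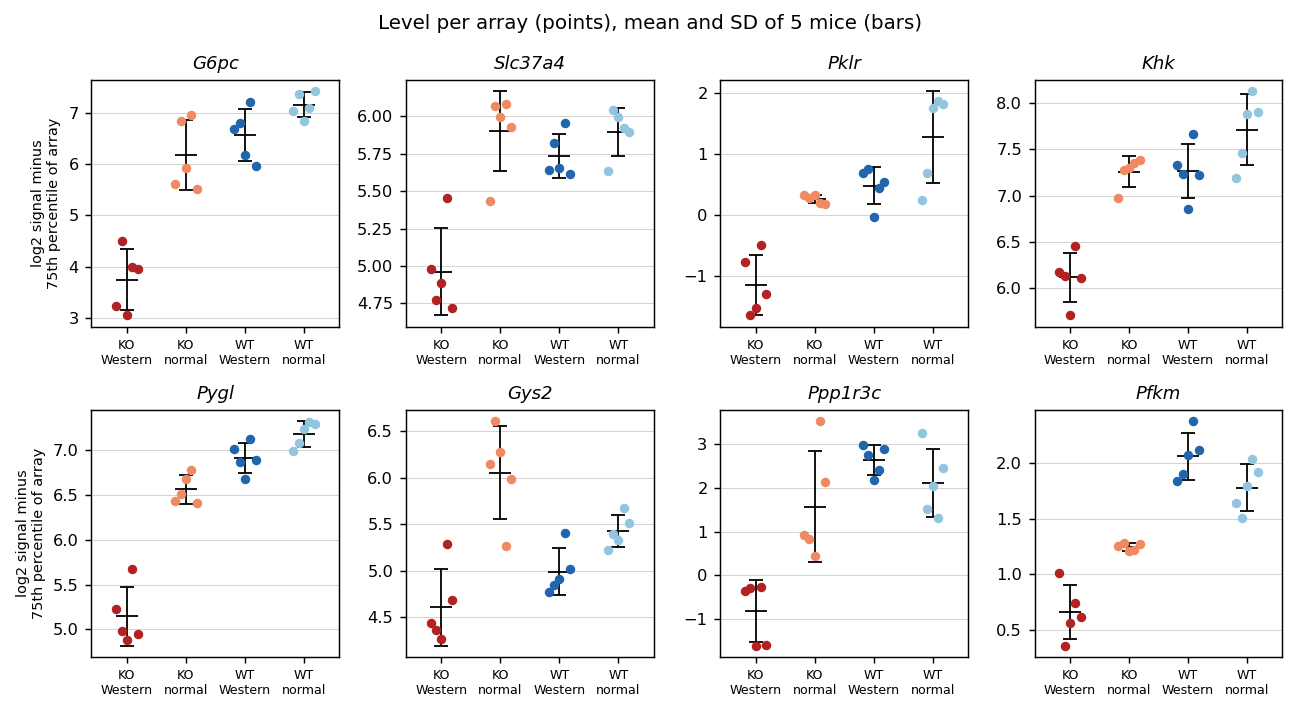
Level per array, in log2 units relative to the 75th percentile of that array, drawn as in the plot of the genes that were higher. G6pc, Slc37a4, Pklr, Khk, Pygl, Ppp1r3c and Pfkm have their lowest mean in KO livers on Western diet, and Gys2 has its highest mean in KO livers on normal diet.

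Among the 34, all genes of glycogen metabolism that were called were lower. Of 7 tested, 5 were lower in KO than in WT livers on Western diet, against 30.6% of all genes. On Western against normal diet in KO livers 6 were lower, against 26.4% of all genes. In KO against WT livers on normal diet 1 was lower, against 7.92%. Pygl, the liver glycogen phosphorylase that starts glycogen breakdown, measured 5.23, 4.99, 4.89, 5.68 and 4.94 in KO and 7.01, 6.87, 6.67, 7.12 and 6.89 in WT livers on Western diet. With the normal diet, the values were 6.43, 6.52, 6.68, 6.77 and 6.41 in KO and 6.99, 7.07, 7.24, 7.31 and 7.29 in WT livers. The genotypes did not overlap on either diet. It fell by 1.77 on Western diet (SE 0.14, adjusted p = 7.53e-09) and by 0.62 on normal diet (SE 0.14, adjusted p = 0.00376), and the diet effects differed by -1.15 ± 0.20 (adjusted p = 0.000311). Its second probe was called on Western diet, -2.09 ± 0.38, but not on normal diet, -0.64 ± 0.38 (adjusted p = 0.265), nor for the difference of diet effects, -1.45 ± 0.54 (adjusted p = 0.0526).

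Ppp1r3c and Ppp1r3b encode subunits that bring a phosphatase to glycogen, where it activates glycogen synthase. Ppp1r3c, whose window holds an E-box, measured -0.35, -0.29, -1.60, -0.26 and -1.58 in KO and 2.99, 2.75, 2.18, 2.41 and 2.89 in WT livers on Western diet. On normal diet it measured 0.92, 0.82, 0.46, 3.53 and 2.14 in KO and 3.25, 1.52, 2.04, 1.31 and 2.47 in WT livers. Its Western diet difference, -3.46 ± 0.50, was the largest downward one among the 34 (11.0-fold lower, adjusted p = 1.12e-05). On normal diet the values overlapped widely, -0.54 ± 0.50 (adjusted p = 0.488), and the diet effects differed by -2.92 ± 0.71 (adjusted p = 0.00489). The second probe of Ppp1r3c gave -4.44 ± 0.61 on Western diet (adjusted p = 6.21e-06). Ppp1r3b gave -1.57 ± 0.47 on Western diet (adjusted p = 0.00854). Its lower level on Western than on normal diet in KO livers, -1.34 ± 0.47, lost its call without KO Western diet replicate 2 or 3 or KO normal diet replicate 4 or 5 (adjusted p of 0.0640 to 0.0803).

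Gys2, the liver glycogen synthase, had its highest mean in KO livers on normal diet, with overlap. It measured 4.44, 4.36, 4.27, 5.29 and 4.68 in KO and 4.77, 4.84, 4.91, 5.41 and 5.02 in WT livers on Western diet. Its normal diet values were 6.14, 6.61, 6.28, 5.26 and 5.98 in KO and 5.22, 5.40, 5.33, 5.67 and 5.51 in WT livers. KO minus WT was -0.38 ± 0.22 on Western diet (adjusted p = 0.149) and 0.63 ± 0.22 on normal diet (adjusted p = 0.0525), neither past the threshold. Western minus normal diet was -1.45 ± 0.22 in KO livers (adjusted p = 2.65e-05), and the diet effects differed by -1.01 ± 0.31 (adjusted p = 0.0216), and quantile normalization ended the second call. Ugp2, which makes the activated glucose for glycogen, and Gbe1, the branching enzyme, fell by 0.84 (SE 0.21) and by 0.86 (SE 0.18) on Western diet, both with overlapping groups. The second probe of Ugp2 gave 0.02 ± 0.20 there (adjusted p = 0.932), and the mean of both probes ended the call. Ppp1r3g, another glycogen-targeting subunit, spread too widely for a call, from -4.96 to 1.72 in KO and -1.90 to 0.22 in WT livers on normal diet.

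**Figure D4:**
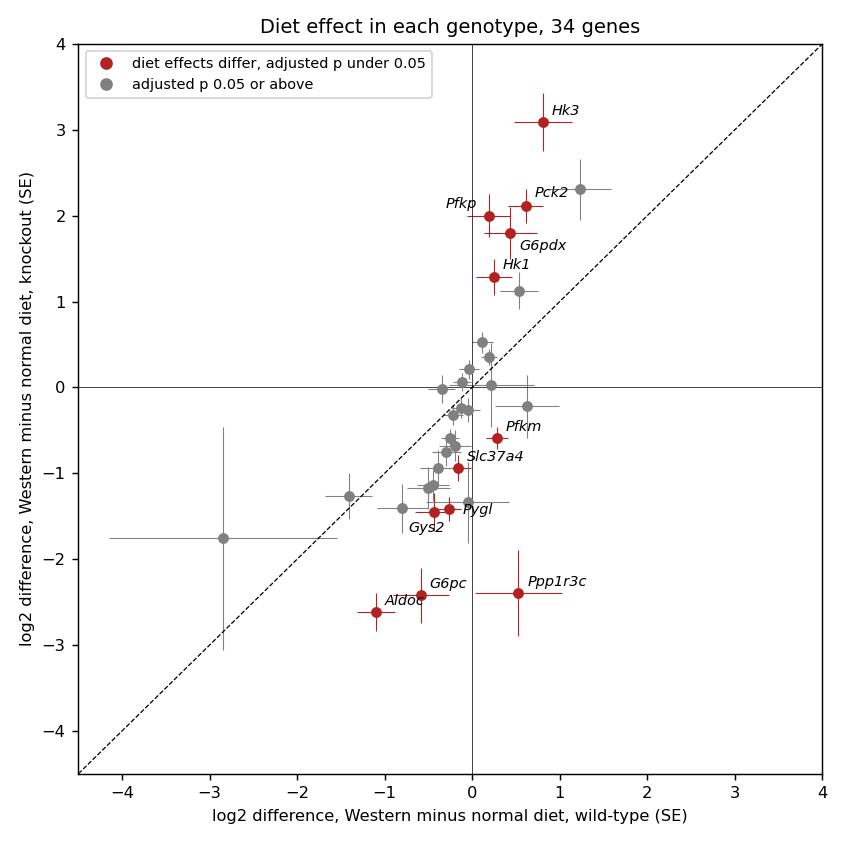
Diet effect, log2 of Western minus normal diet, in KO livers (vertical) against WT livers (horizontal), with SE; the dashed line marks equal effects, and the axes rest on separate animals. The 12 named genes had diet effects that differed between genotypes by their brightest probe, 5 above the line and 7 below it. Not every probe of Hk1, Aldoc, Pygl and Pfkp was called.

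By the brightest probe of each gene, diet effects differed between the genotypes upward for Hk1, Hk3, Pfkp, Pck2 and G6pdx. They differed downward for Ppp1r3c, G6pc, Aldoc, Pygl, Gys2, Pfkm and Slc37a4. For Hk1, Aldoc, Pygl and Pfkp not every probe was called. All 12 calls held when any single array was left out. The upward count depended on the scaling: it was 3 with median scaling, 9 with quantile normalization and 11 with the authors' deposited values, against 6 downward with each of quantile normalization and the deposited values. Median scaling ended the calls of Hk1 and G6pdx. Either normexp correction ended those of G6pc, Pygl, Pfkm, Slc37a4, Gys2 and Pfkp, and the downward count was 2 with normexp and 1 with its maximum likelihood form. The background mean fitted by normexp differed widely between arrays of the same group, from -471 to -4.64 in WT livers on Western diet. Its part in the lost calls was not tested.

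Some of the genes tested were listed as forms that dominate in hepatocytes or elsewhere, lists drawn up with earlier results of these data known. Hepatocyte forms were Fbp1, G6pc, Gckr, Gys2, Khk, Pcx, Pfkfb1, Pfkl, Pklr, Ppp1r3b, Pygl, Slc2a2 and Slc37a4. The other forms were Aldoc, Hk1, Hk2, Hk3, Pfkfb3, Pfkm, Pfkp and Slc2a1. Neither list held Eno1, G6pdx, Gapdh, Gbe1, Gpi1, Ldha, Pck2, Pgam1, Pgk1, Ppp1r3c, Ppp1r3g, Tpi1 or Ugp2. Of 13 hepatocyte forms tested, 0 were higher and 9 lower in KO than in WT livers on Western diet (median difference -0.59, which is the value of the saturated Fbp1), against 26.1% and 30.6% of all genes. Gckr, Khk, Pcx and Slc37a4 are in this list although the members hold no other form of them, and each was among the 9. Of the same 13, 0 were higher and 11 lower on Western than on normal diet in KO livers (median -1.17), against 23.7% and 26.4%. Of 8 other forms tested, 5 were higher and 1 lower in KO than in WT livers on Western diet (median 1.68), the lower one being Pfkm, and 5 were higher and 2 lower between the diets in KO livers (median 1.21), the lower ones being Pfkm and Aldoc. On normal diet the KO minus WT counts were 0 higher and 3 lower for hepatocyte forms (median -0.13), and 6 higher and 1 lower for the other forms (median 1.17), against 11.4% and 7.92% of all genes. Across the alternative settings, the Western diet median stayed between -0.71 and -0.28 for hepatocyte forms and between 1.00 and 1.81 for the others.

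Markers of some cell types moved with these groups. Their counts for KO against WT livers on Western diet are to be read against the 26.1% higher and 30.6% lower of all genes. Hepatocyte markers were lower in KO than in WT livers on Western diet for 10 of 14 genes, with a median difference of -0.54, Ttr at -1.99 and Alb at -0.36. Their summed level, in multiples of the 75th percentile, was 1352 to 1600 in KO livers on Western diet and 2182 to 2837 on normal diet, and 1849 to 2428 in WT livers on Western diet and 2379 to 3593 on normal diet. Of 16 macrophage markers, 11 were higher and 4 lower in KO livers on Western diet, with Gpnmb at 11.50 and Itgax at 7.62, while Cd5l and Clec4f of resident Kupffer cells gave -8.51 and -8.06. Their summed level was 402 to 506 in KO livers on Western diet, 26.5 to 136 in KO livers on normal diet, 60.0 to 215 in WT livers on Western diet and 46.6 to 99.6 in WT livers on normal diet. Markers of stellate cells and fibroblasts were higher in 10 of 12, of bile duct and progenitor cells in 7 of 8, and of neutrophils in 5 of 6, and 0 were lower in each list. The stellate and fibroblast sum was 108 to 251 in KO livers on Western diet, 60.0 to 92.2 in KO livers on normal diet, 16.7 to 65.3 in WT livers on Western diet and 16.8 to 73.9 in WT livers on normal diet. The bile duct and progenitor sum, in the same order of groups, was 159 to 231, 17.4 to 50.9, 34.9 to 156 and 13.2 to 25.3, and the neutrophil sum was 12.8 to 54.9, 1.96 to 4.61, 1.82 to 11.3 and 1.07 to 5.80. Of 10 endothelial markers 3 were higher and 1 lower in KO than in WT livers on Western diet, with a median difference of -0.19. Of 9 T and B lymphocyte markers 3 were higher and 2 lower. Of 4 red blood cell markers 1 was higher and 1 lower, and of 2 skeletal muscle markers 1 and 1. The 1 adipocyte marker tested was not called. Itgam was not above background on any array of WT livers on Western diet, nor Gpnmb on any of WT livers on normal diet. On normal diet, 0 of 14 hepatocyte markers were called between the genotypes. The part of these shifts in the members' differences was not tested. In whole liver, fewer cells of a type and less RNA per cell cannot be told apart.

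**Figure D5:**
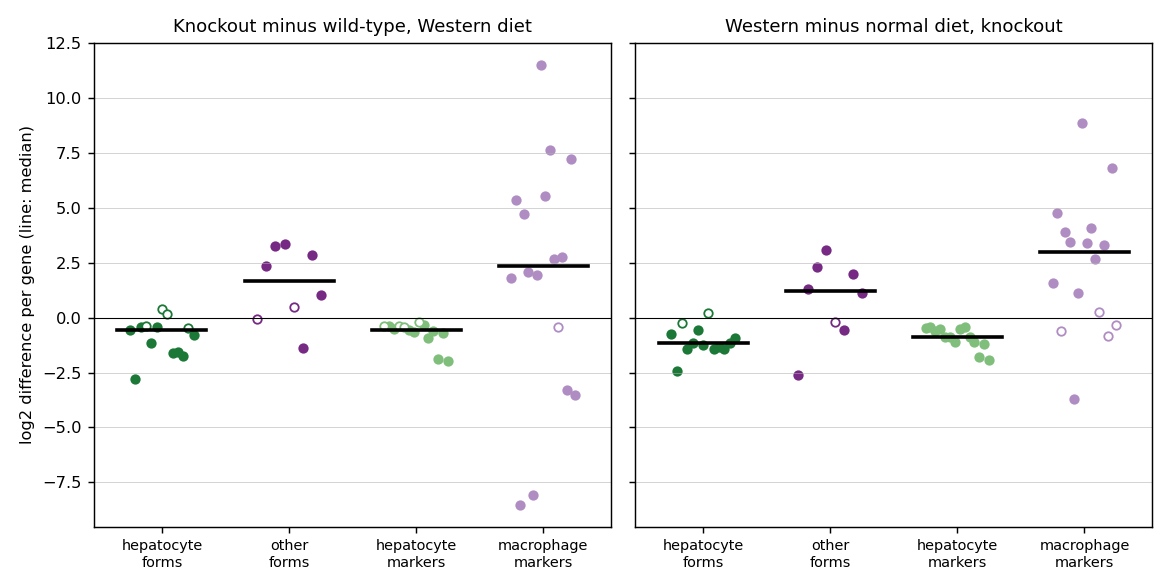
Log2 difference of each gene in hepatocyte forms (13 genes), other forms (8 genes), hepatocyte markers (14 genes) and macrophage markers (16 genes), for KO minus WT on Western diet (left) and for Western minus normal diet in KO livers (right). Filled points have an adjusted p under 0.05 and lines are medians, which on the left are -0.59, 1.68, -0.54 and 2.35.

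Other genes of the same pathways are given as counts for KO against WT livers on Western diet, with genes named from among the 3 largest differences of each list. Each count is to be read against the 26.1% higher and 30.6% lower of all genes. Of 11 further glycolytic genes, 5 were higher and 2 lower: Pkm, the pyruvate kinase of most cells other than hepatocytes, gave 3.56 ± 0.28 (adjusted p = 6.91e-09) and Pfkfb4 gave 2.97 ± 0.21 (adjusted p = 2.71e-09). Eno2 was well above background on all 5 KO arrays on Western diet and on 0 of the other 15. It passed the filter on dim signals only through that group, so a call for it is no support for a difference. Of 19 further glycogen genes, 4 were higher and 7 lower, among them Ppp1r3d at 2.48 ± 0.24 and Gyg, the primer of glycogen, at 2.18 ± 0.22, which rose. Of 25 transcriptional regulators, 6 were higher and 12 lower, with Mlxipl at -1.81 ± 0.14 (adjusted p = 4.25e-09) and Nr4a1 at 2.24 ± 0.49 (adjusted p = 0.00075). Mlxipl gave -0.29 ± 0.14 on normal diet (adjusted p = 0.142), and its diet effects differed by -1.52 ± 0.19 (adjusted p = 1.94e-05).

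Of 15 genes of pyruvate dehydrogenase, its kinases and pyruvate transport, 4 were higher and 8 lower. Slc16a3, a lactate exporter, rose by 3.57 ± 0.27, and Pdp1, the phosphatase that activates the dehydrogenase, rose by 2.84 ± 0.23. Of 14 shuttle and substrate enzymes, 3 were higher and 7 lower, with Mdh1, cytosolic malate dehydrogenase, at -1.20 ± 0.13. Of 8 pentose phosphate genes beyond G6pdx, 2 were higher and 4 lower, with Pgd, the next NADPH-yielding enzyme, at 1.00 ± 0.25 and Shpk, sedoheptulokinase, at -1.38 ± 0.20. Of 8 fructose and galactose genes 1 was higher and 5 were lower, with Galm, galactose mutarotase, at -1.89 ± 0.20 and Akr1b3, aldose reductase, at 1.36 ± 0.22. Of 19 insulin and glucagon signalling genes 6 were higher and 6 lower, with the phosphatase gene Ptpn1 at 1.48 ± 0.16.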

How the data were processed

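Liver RNA of 20 mice was hybridised to 20 one-colour (Cy3) Agilent arrays. The deposited files hold spot intensity values from Feature Extraction 9.5.3.1 per the file headers, already background-corrected, with flags for outlier, saturated and well-above-background spots. The authors' deposited table of normalized values is on a log2 scale, judged from its values against the scanner signals, and served as an alternative only; the submitters' processing notes name limma without saying for which step.

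Here the processed signal was put on a log2 scale and centred on its 75th percentile array by array, with outlier spots counting as missing. Probes numbered 41174, and the brightest probe stood for a gene. A gene was tested where 4 or more of the 5 arrays of any group had it well above background. R 4.3.3 and limma 3.58.1 fitted 4 group means to all 20 arrays (16 residual and 2.235 prior degrees of freedom), with 5 contrasts and Benjamini-Hochberg adjustment per contrast over all genes tested. Values of further probes came from the same fit over all probes. Arrays give no counts, so 5 mice per group limit the precision. The code was tested on simulated data.

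Alternatives covered the scaling, background correction, filter, probe choice, slide as a block, the groups fitted, a block for replicate number, and each array left out; 31 of 33 were planned and 2 were added after seeing the data. Slides were told apart by scan time. Same-numbered arrays did not vary together in every pair of any comparison, so the numbers were taken as names. The genes, gene lists and markers were chosen with earlier results of these data known. All 37 genes could be named, and up to 3 genes of each further list by largest absolute difference. Promoters were taken from RefSeq on GRCm38.p6.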

Additional observations from a re-analysis of the deposited data

Results flagged for a closer look

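Within single groups of 5 mice, 7 of 139 gene and group pairs held 1 array far from the others, where chance flags about 1 in 20. Aldoc was 3.19 in KO normal diet replicate 5 and 2.66 to 2.75 in the other KO livers on normal diet. Khk was 6.97 and Slc37a4 was 5.44 in KO normal diet replicate 1, where the others lay at 7.27 to 7.39 and at 5.93 to 6.08. Pfkfb3 was 2.43 in KO Western diet replicate 1, against 1.95 to 2.03. Slc2a2 was 3.15 in WT Western diet replicate 1, against 3.92 to 4.13. Fbp1, which was saturated there, was 8.44 in WT normal diet replicate 4, against 7.76 to 7.91. G6pdx was -0.80 in WT normal diet replicate 1, where the others lay close to 0.

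The diet effect differed between KO and WT livers, by the interaction term of the limma fit, for 12 genes by their brightest probe. Further probes of Hk1, Aldoc and Pygl were not called for it. KO minus WT diet effects were 1.04 for Hk1, 2.28 for Hk3, 1.81 for Pfkp, 1.50 for Pck2 and 1.36 for G6pdx. They were -2.92 for Ppp1r3c, -1.83 for G6pc, -1.52 for Aldoc, -1.15 for Pygl, -1.01 for Gys2, -0.87 for Pfkm and -0.78 for Slc37a4.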

How the results depend on the processing

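Of 76 calls among 170 gene values, 33 were kept under every alternative that could be fitted for them. There were 33 alternatives at most, and 32 at most for the difference of diet effects. A further call, 1 in all, turned its sign without passing: Pgk1 in KO livers between the diets, at 0.14 with quantile normalization and 0.14 with the authors' deposited values. Some values without a call turned sign and passed the threshold: Aldoc, KO against WT on Western diet, at 1.03 with the mean of all probes; Pgam1, same comparison, at 0.22 with quantile normalization; and, between the diets in KO livers, Gckr at 0.27 and 0.23 and Ldha at 0.51 and 0.48 with quantile normalization and the deposited values. The cause was not tested.

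Counts moved as follows. KO against WT on normal diet, higher (8), was 3 with either normexp correction. Lower (5) was 3 with median scaling, quantile normalization, no filter or the slide block, and 0 with either normexp correction. On Western diet, lower (14) was 7 with normexp and 6 with its maximum likelihood form. In WT livers between the diets, higher (1) was 2 with the slide block and 0 with median scaling, either normexp correction, no filter, the mean of all probes or only the groups compared, and lower (2) was 1 with median scaling and either normexp correction. In KO livers, lower (17) was 8 and 7 with the 2 normexp forms. For the difference of diet effects, higher (5) was 3 with median scaling, 9 with quantile normalization and 11 with the deposited values, and lower (7) was 2 and 1 with the 2 normexp forms. The cause was not tested.

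Leaving out 1 array gave 6 to 9 higher and 2 to 8 lower on normal diet, 8 to 8 and 14 to 16 on Western diet, 0 to 2 and 2 to 3 between the diets in WT livers, 9 to 9 and 15 to 17 in KO livers, and 5 to 6 and 6 to 9 for the difference of diet effects. With replicate number as a block the higher and lower counts were 8 and 6, 8 and 14, 1 and 2, 9 and 17, and 5 and 8, in the same order. Over all genes, the median of KO against WT on Western diet was -0.12 and moved to -0.25 with median scaling. That of the diet effect in WT livers was -0.03 and moved to 0.08. With normexp the median in KO livers between the diets moved to -0.19 and that of the difference of diet effects to -0.16. Of all genes called, 53.4% were higher between the diets in WT livers, against 66.6% with median scaling, and 49.2% for the difference of diet effects, against 68.0% with normexp. Dim probes such as Gapdh and Ppp1r3g and saturated ones such as Fbp1 limit what can be measured.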
